A study of Mus musculus with 15 samples.

Results

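Serpins are protease inhibitors that work as traps. The protease cuts an exposed stretch of the serpin, the reactive centre loop, and stays bound while the serpin changes shape. Hepatocytes release clade A serpins into the blood, where alpha-1-antitrypsin, the product of the Serpina1 genes, holds neutrophil elastase. Mice carry a family of near-identical Serpina1 copies, and the copies differ in the loop and so in the proteases they can hold. Serpina3k and Serpina3n belong to the neighbouring antichymotrypsin family. Serpina3k is known as a kallikrein-binding protein, and Serpina3n as an inflammation-induced inhibitor of granzyme B. Serpinb1a belongs to clade B, whose members stay inside cells, and it inhibits the elastase and related proteases of neutrophils.

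The 9 genes described are Serpina1a, Serpina1b, Serpina1c, Serpina1d, Serpina1e, Serpina3k, Serpina3m, Serpina3n and Serpinb1a. They are 9 of the 23420 genes in the count tables and 9 of 63 genes with a Serpin symbol. They were chosen by name from their levels in the 3 diets, with earlier results of the same libraries known. Their differences between diets are therefore given as a description. No p-value is given for them, and calls from the fit over all genes are listed without support being drawn from them.

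The libraries hold polyA RNA from the pulverized left lobe of the liver. The mice were males of the inbred strain C57Bl/6J. The base diet (BD) had 4% fat. The high-fat diet (HFD) had 31% fat. The third diet (MCD) also had 31% fat and was deficient in methionine, choline and folate. Each diet had 5 libraries. Every mouse had received the vehicle alone, 5% of the emulsifier Alkmauls El-620 in saline, and the liver was taken 24 h later. The study concerned how fatty liver alters the handling of tetrachloroethylene, but no library of a mouse given that solvent was analysed here. The sources used here give neither the age nor the time on the diet. The sample numbers of the base diet stand apart from those of the other diets, so base diet and any batch following the numbers cannot be told apart. Each diet is also listed as its own run of samples. A batch following that order could not be told apart from any of the diets. No label says that each library is a separate animal, and a p-value then covers only the spread among libraries, which may be technical.

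Gene counts ran from 3704642 to 23131089 per library, with a median of 10312311. Levels are given in CPM, gene counts scaled to a common library total with TMM factors, and every mean stands with its SD over n = 5 unless another n is named. HFD replicate 2 stood apart from the other libraries in several serpins, and values without it are given beside the results that it moved most. Alignments that were not unique entered no gene. They numbered 1.49 to 2.80 per gene count in the BD libraries, 1.15 to 2.53 in the HFD libraries and 1.19 to 1.67 in the MCD libraries. The labelled tissue was checked against 8 hepatocyte markers. The 7 found summed to between 108752 and 158445 CPM in every library. In liver tissue, fewer cells of a type and less RNA per cell cannot be told apart.

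The Serpina1 and Serpina3 genes form a cluster on chromosome 12 (positions in GRCm38, gene models of GENCODE vM21). On the minus strand lie Serpina1b (103728156 to 103830373), Serpina1d (103763594 to 103773592), Serpina1a (103853589 to 103863562), Serpina1c (103894926 to 103904887) and Serpina1e (103946931 to 103958975). On the plus strand lie Serpina3k (104338486 to 104346144), Serpina3m (104338486 to 104394257) and Serpina3n (104406729 to 104414329). The gene model of Serpina1b spans Serpina1d, and that of Serpina3m spans Serpina3k. Serpinb1a lies on chromosome 13 (32842092 to 32851185, minus strand) and has 7 exons, whereas each of the other 8 transcripts has 5.

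The coding sequences of the 5 Serpina1 copies were 96.3% to 98.5% identical over 1239 bases, across 10 pairs. Of the 1239 aligned columns 86 varied, and a window of 60 bases that encodes part of the reactive centre loop held 18 of them. This window was picked as the stretch of 60 columns with the most varying ones, so its count of 18 follows from that choice. The loop sets which protease is held, and differences such as these let a read be placed on 1 copy. The lines below give coding bases 1101 to 1160 of each copy, read on the minus strand of GRCm38 and written 5′ to 3′. Capitals mark bases that differ from the base most copies carry, or columns in which no base has a majority.
Serpina1a, chr12:103853757-103853816: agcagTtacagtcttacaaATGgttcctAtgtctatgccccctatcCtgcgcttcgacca
Serpina1b, chr12:103728324-103728383: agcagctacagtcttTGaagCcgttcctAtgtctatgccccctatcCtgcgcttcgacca
Serpina1c, chr12:103895094-103895153: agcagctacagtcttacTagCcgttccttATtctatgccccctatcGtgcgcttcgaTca
Serpina1d, chr12:103763762-103763821: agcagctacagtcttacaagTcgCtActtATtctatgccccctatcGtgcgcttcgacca
Serpina1e, chr12:103947100-103947159: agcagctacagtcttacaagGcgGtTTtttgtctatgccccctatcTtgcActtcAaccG
Serpina1e carried 8 capitals in this window, and the other copies 5 or 6 each.

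Near-identity limits what a read count can say about a copy. Of the 50-base windows of its transcript, 64.4% were found in no other gene for Serpina1e and 64.2% for Serpina1b. The share was 49.1% for Serpina1d, 25.8% for Serpina1c and 19.2% for Serpina1a, so the values of Serpina1a and Serpina1c are the least certain. With 100-base windows the shares were 85.2% for Serpina1e and 39.0% for Serpina1a. The other 4 genes were better separated, with 86.0% for Serpina3k, 80.9% for Serpina3m, 93.1% for Serpina3n and 96.6% for Serpinb1a at 50 bases.

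The promoters of the copies are nearly alike too. RefSeq promoter sequences (GRCm38.p6) were found for 6 of the 9 genes, the Serpina1 copies and Serpina3n. The stretch shown is shared by all 5 Serpina1 copies and lies upstream of the transcript start that RefSeq gives for each, although the GENCODE models of Serpina1b and Serpina1e reach further upstream. It is given to show how alike the copies are upstream, and whether it bears on the diet differences was not tested. Over 191 aligned columns the copies were 92.6% to 97.9% identical, and 23 columns varied. Capitals again mark bases outside the majority.
Serpina1a, chr12:103863625-103863812: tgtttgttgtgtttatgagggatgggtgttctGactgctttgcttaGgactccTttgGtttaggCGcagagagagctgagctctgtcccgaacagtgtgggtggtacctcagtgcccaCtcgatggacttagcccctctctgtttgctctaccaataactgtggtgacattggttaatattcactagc
Serpina1b, chr12:103738200-103738389: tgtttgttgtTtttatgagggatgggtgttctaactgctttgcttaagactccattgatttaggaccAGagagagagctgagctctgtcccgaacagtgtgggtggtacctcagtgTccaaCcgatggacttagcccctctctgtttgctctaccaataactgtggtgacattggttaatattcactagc
Serpina1c, chr12:103904962-103905149: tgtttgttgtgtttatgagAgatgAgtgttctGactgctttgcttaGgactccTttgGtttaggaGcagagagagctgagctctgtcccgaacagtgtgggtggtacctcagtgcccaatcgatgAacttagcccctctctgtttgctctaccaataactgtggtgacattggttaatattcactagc
Serpina1d, chr12:103773634-103773822: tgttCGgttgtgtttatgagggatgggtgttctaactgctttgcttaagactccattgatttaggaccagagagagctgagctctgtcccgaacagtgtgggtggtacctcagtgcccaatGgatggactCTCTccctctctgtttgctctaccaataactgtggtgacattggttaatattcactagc
Serpina1e, chr12:103956960-103957147: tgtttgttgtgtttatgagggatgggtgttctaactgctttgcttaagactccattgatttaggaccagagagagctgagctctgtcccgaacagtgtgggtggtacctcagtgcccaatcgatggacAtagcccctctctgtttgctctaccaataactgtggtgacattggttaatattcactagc
Serpina1e differed from all the other copies in 1 column of the stretch, Serpina1a in 2, Serpina1c in 3, Serpina1b in 5 and Serpina1d in 7. The letters GTTAAT, which are part of the palindrome bound by the hepatocyte factor HNF1, occurred once on either strand in each of the 5 Serpina1 promoters (250 bases before to 50 after the start) and not in that of Serpina3n. Of all 32851 promoters of this length 7.1% hold them. The STAT motif TTCNNNGAA was found in none of the 6 promoters and in 8.3% of all promoters.

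Together the 9 genes took 2.08% to 3.28% of gene counts in the BD libraries, 1.15% to 2.58% in the HFD libraries and 1.13% to 2.08% in the MCD libraries. Summed, they stood at 27489 ± 4497 CPM in BD. The sum was 20182 ± 5743 CPM in HFD and 13831 ± 4333 CPM in MCD. The MCD mean was 0.503 of the BD mean. The HFD mean was 0.734 of it, or 0.816 without HFD replicate 2. In BD most of the sum came from Serpina3k (10961 ± 2029 CPM) and Serpina1e (8437 ± 2181 CPM). In MCD, Serpina1b (2512 ± 417 CPM) stood above Serpina1e (1361 ± 800 CPM).

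**Figure D1:**
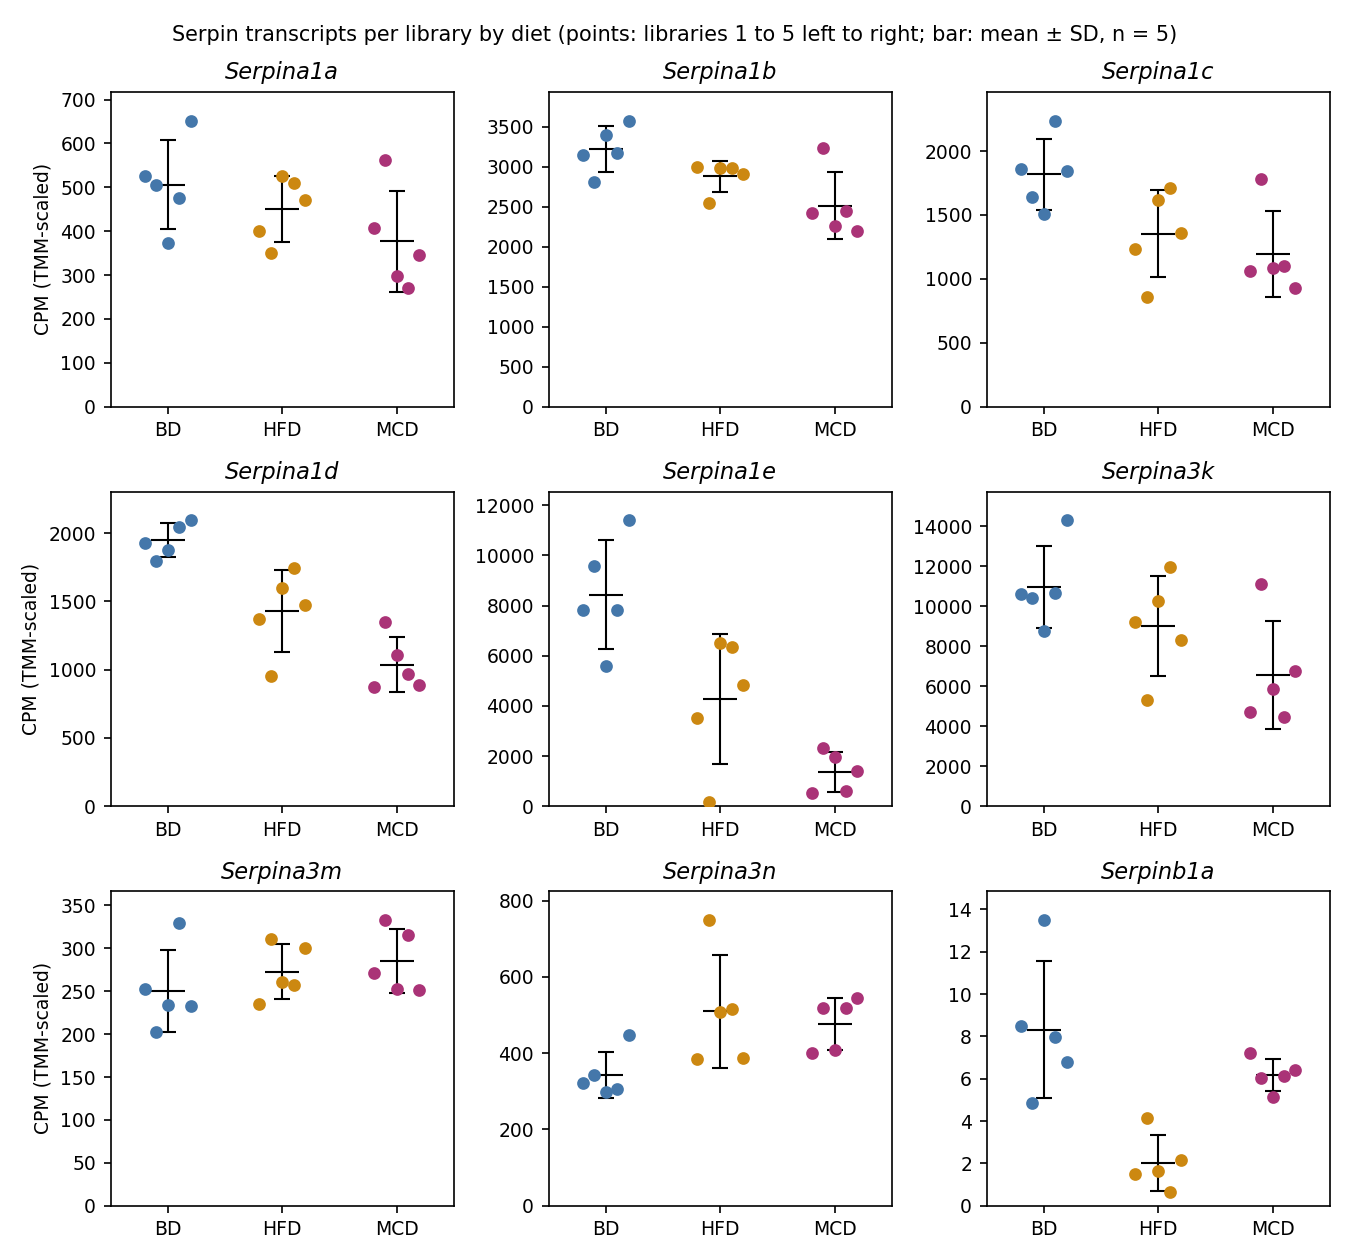
Level of each of the 9 serpins in CPM (TMM-scaled, linear axis from 0) in the 5 libraries of each diet, with libraries 1 to 5 from left to right and bars at the mean ± SD. The 5 MCD libraries lie between 518 and 2322 CPM for Serpina1e, below all 5 BD libraries, while for Serpinb1a the HFD libraries lie lowest.

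Serpina1e had the widest MCD against BD difference of the 9 genes. The BD libraries read 7813, 9569, 5581, 7817 and 11406 CPM. The HFD libraries read 3513, 165, 6515, 6352 and 4841 CPM. The MCD libraries read 518, 2322, 1967, 613 and 1385 CPM. All 5 MCD libraries were below all 5 BD libraries, and HFD replicate 2 was below every MCD library. The means were 8437 ± 2181 CPM in BD, 4277 ± 2604 CPM in HFD and 1361 ± 800 CPM in MCD, so that the BD mean was 6.20 times the MCD mean. Without HFD replicate 2 the HFD mean was 5305 ± 1413 CPM (n = 4), or 0.629 of the BD mean in place of 0.507. On the log2 scale of the fit, Serpina1e differed by -2.63 ± 0.72 (SE) between MCD and BD, with a 95% interval from -4.20 to -1.06. HFD against BD gave -0.98 ± 0.69, an interval that includes 0, and -0.66 without HFD replicate 2.

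Serpina1d varied little within BD, where it read 1928, 1796, 1875, 2046 and 2095 CPM. Its HFD libraries read 1368, 954, 1595, 1747 and 1473 CPM. In MCD it read 869.6, 1349, 1109.7, 971 and 887 CPM. All HFD and all MCD libraries were below all BD libraries, while HFD and MCD overlapped only through HFD replicate 2. The fitted difference was -0.45 ± 0.14 for HFD against BD, -0.91 ± 0.14 for MCD against BD and -0.46 ± 0.14 for MCD against HFD. Without HFD replicate 2 the first became -0.33 and the last -0.56.

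Serpina1b, the copy with the most CPM in MCD and the next after Serpina1e in BD and HFD, had the smallest MCD against BD difference of the 5. It read 3142, 2809.7, 3399.7, 3167 and 3576 CPM in BD. The HFD values were 3001, 2543, 2982, 2980.5 and 2912 CPM, and the MCD values were 2420.1, 3233, 2259, 2449 and 2198 CPM. MCD replicate 2 lay within the BD range and the other 4 MCD libraries below it. MCD against BD gave -0.36 ± 0.11, and -0.46 without MCD replicate 2.

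Serpina1c read 1860.1, 1638, 1504, 2238 and 1841 CPM in BD. The HFD values were 1235, 857, 1618, 1707 and 1355 CPM, and the MCD values were 1063, 1782, 1084, 1097 and 932 CPM. Again MCD replicate 2 alone lay within the BD range, and the fitted difference between MCD and BD was -0.61 ± 0.19, or -0.79 without that library.

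Serpina1a, the copy with the fewest reads, stood at 526.5, 504.5, 372, 475 and 652 CPM in BD. The HFD libraries had 399.6, 349.8, 526, 511 and 471 CPM, and the MCD libraries had 408, 562, 298, 271 and 345 CPM. It averaged 506 ± 101 CPM in BD, 452 ± 75.0 CPM in HFD and 377 ± 116 CPM in MCD, and the 3 diets overlapped. MCD against BD gave -0.43 ± 0.18.

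The 5 copies were also summed. Reads that match several copies were dropped, so the sum lacks them too. It was not refitted with the non-unique alignments as a covariate or with a library left out. The Serpina1 sum read 15269, 16317, 12732, 15743 and 19570.1 CPM in BD. It read 9516, 4869, 13236, 13298 and 11053 CPM in HFD. In MCD it read 5278, 9248, 6718, 5399.8 and 5747 CPM. No MCD library reached the lowest BD library. Fitted as 1 gene, the sum differed by -1.29 ± 0.23 between MCD and BD, by -0.61 ± 0.23 between HFD and BD and by -0.68 ± 0.23 between MCD and HFD. The HFD mean of the sum was 0.653 of the BD mean, and 0.739 without HFD replicate 2.

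The makeup of the sum differed along with its size. In BD Serpina1e contributed 52.3% ± 6.24 of the summed Serpina1 level. Its contribution was 36.2% ± 19.0 in HFD and 19.9% ± 8.77 in MCD. HFD replicate 2 had a Serpina1e share of 3.39%, and the other 4 ran from 36.9% to 49.2%. Serpina1b went the other way, from 20.6% ± 3.69 in BD to 39.6% ± 5.73 in MCD. These shares count only reads placed on 1 copy, so they are not shares of transcript molecules.

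**Figure D2:**
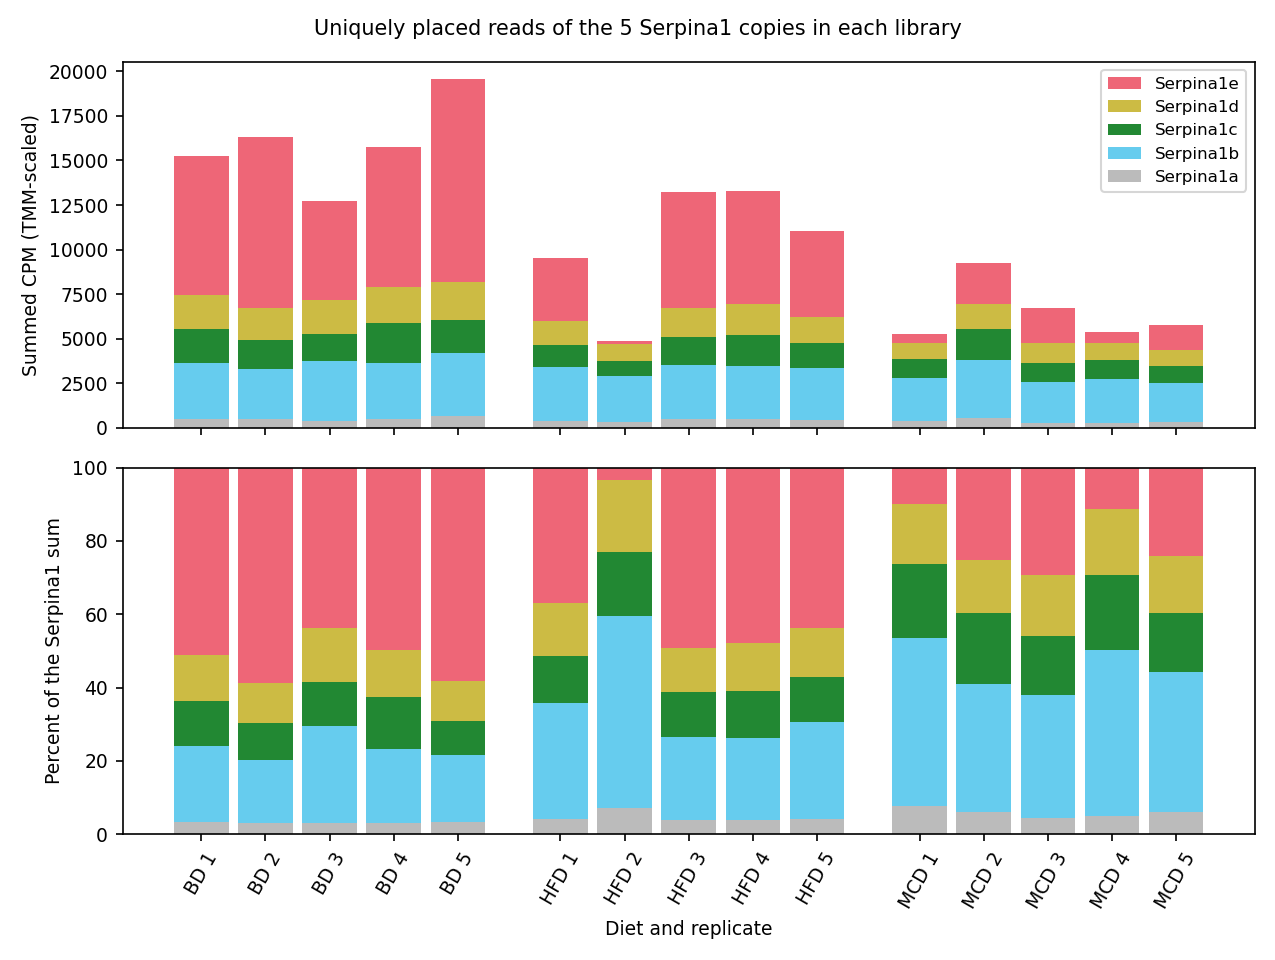
Upper panel, summed CPM of the 5 Serpina1 copies in each library, stacked by copy; lower panel, each copy as a percent of that sum. Serpina1e makes up 43.8% to 58.6% of the sum in the BD libraries and 9.81% to 29.3% in the MCD libraries, and HFD replicate 2 stands apart from the other HFD libraries.

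Serpina3k was the gene with the highest mean CPM of the 9 in each diet. It read 10631, 10417, 8777, 10672 and 14308 CPM in BD. In HFD it read 9219, 5287, 10271, 11956 and 8287 CPM. In MCD it read 4708, 11126, 5838, 4478 and 6768 CPM. MCD replicate 2 lay among the BD libraries, while the other 4 were below all of them. MCD against BD gave -0.74 ± 0.24, with an interval from -1.25 to -0.22, and -1.0 without MCD replicate 2.

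Serpina3m, whose gene model overlaps Serpina3k, had overlapping libraries in all 3 diets. It stood at 253, 203, 234, 329 and 233 CPM in BD. The HFD libraries had 235, 311, 260.2, 258 and 300.5 CPM, and the MCD libraries had 271, 333.5, 253, 316 and 252 CPM. It averaged 250.4 ± 47.5 CPM in BD, 273 ± 31.7 CPM in HFD and 285 ± 37.5 CPM in MCD. Its fitted difference was 0.13 ± 0.12 for HFD against BD, 0.19 ± 0.12 for MCD against BD and 0.06 ± 0.12 for MCD against HFD. The 95% intervals of the first pair of these included 0 and reached 0.39 and 0.45 at most.

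Serpina3n had a higher mean in both fat-rich diets than in BD, as Serpina3m did to a smaller degree. It read 322, 342, 297, 305 and 448 CPM in BD. In HFD it read 385, 750.2, 507, 516 and 388 CPM. In MCD it read 400.4, 518, 407, 519 and 544 CPM. BD replicate 5 overlapped with both other diets. HFD against BD gave 0.57 ± 0.17 with an interval from 0.22 to 0.92, and MCD against BD gave 0.48 ± 0.17 with an interval from 0.12 to 0.83. HFD replicate 2 held the highest value of all, and without it HFD against BD gave 0.40.

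Serpinb1a followed another pattern, lowest in HFD and not in MCD. It read 8.51, 4.85, 13.5, 7.95 and 6.79 CPM in BD. Its HFD libraries read 1.52, 4.15, 1.66, 0.627 and 2.16 CPM. Its MCD libraries read 7.23, 6.02, 5.14, 6.15 and 6.39 CPM. No HFD library reached the lowest BD or MCD library, and HFD replicate 2 was the highest of the 5 HFD libraries. Few reads lie behind these values, from 7 to 44 counts in HFD, 30 to 157 in BD and 58 to 184 in MCD. HFD against BD gave -2.09 ± 0.37, with an interval from -2.87 to -1.31, and MCD against HFD gave 1.67 ± 0.37. Without HFD replicate 2 these were -2.63 and 2.23. MCD against BD gave -0.42 ± 0.32, an interval that includes 0.

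**Figure D3:**
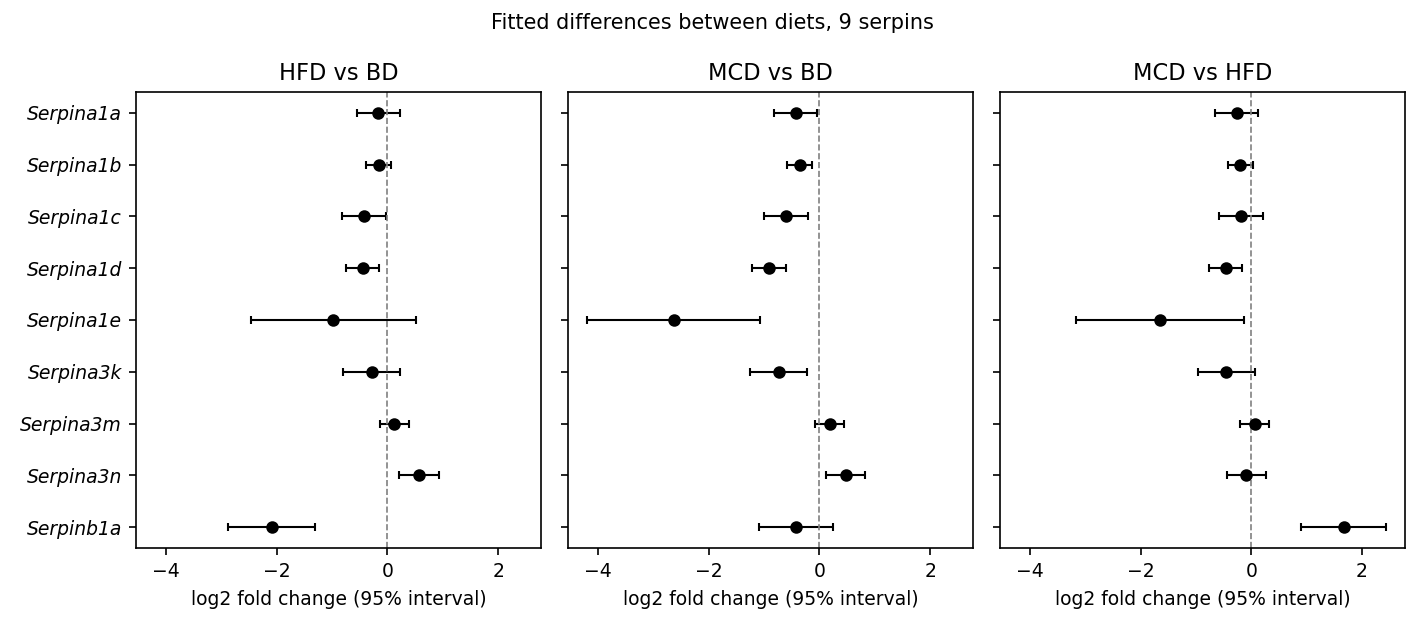
Fitted log2 fold change of each of the 9 serpins for the 3 pairs of diets, with 95% intervals as bars and a dashed line at 0. Serpina1e has the lowest MCD against BD value at -2.63 and the widest intervals, and Serpinb1a is at -2.09 for HFD against BD and at 1.67 for MCD against HFD.

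Against all 12193 genes tested, called means an adjusted p under 0.05 with edgeR's quasi-likelihood test and Benjamini-Hochberg adjustment over all of them. For HFD against BD, 3.65% of genes were called higher and 3.27% lower. Of the 9 serpins, 1 was called higher (Serpina3n) and 1 lower (Serpinb1a). For MCD against BD, 12.8% of genes were called higher and 8.64% lower. None of the 9 was called higher and 5 were called lower, namely Serpina1b, Serpina1c, Serpina1d, Serpina1e and Serpina3k. For MCD against HFD, 2.22% of genes were called higher and 0.927% lower. Serpinb1a was called higher and none of the 9 lower. The libraries of HFD and BD did not overlap for Serpina1d and Serpinb1a, both lower in HFD, as for 3.56% of all genes. Those of MCD and BD did not overlap for Serpina1d and Serpina1e, both lower in MCD, as for 6.07% of all genes. Those of MCD and HFD did not overlap for Serpinb1a, higher in MCD, as for 2.49% of all genes. Nothing is read from these counts, since the genes were chosen with the same contrasts in view. HFD and MCD were compared with the same BD libraries. The median log2 difference of the 9 genes was -0.28 for HFD against BD, -0.43 for MCD against BD and -0.20 for MCD against HFD, beside -0.008, -0.025 and -0.003 over all genes tested.

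Leaving out 1 library ended the calls of several of these genes. A call that was kept is no support either, since the genes were chosen from the same libraries. The MCD against BD call of Serpina1d held in all 15 such fits. That of Serpina1e was lost without MCD replicate 1 or MCD replicate 4. That of Serpina1b was lost without MCD replicate 1, 3, 4 or 5 or BD replicate 3, and also with no TMM factors (-0.22), upper-quartile factors (-0.31) or the 2 diets alone (-0.33). That of Serpina1c was lost without MCD replicate 1, 3, 4 or 5 or BD replicate 1 or 4. That of Serpina3k was lost in 11 of the 15 fits, although its log2 difference stayed between -1.0 and -0.62, and also with no TMM factors (-0.61), upper-quartile factors (-0.69) or no count filter (-0.72). The HFD against BD call of Serpina3n was lost in 10 of 15 fits, with values between 0.40 and 0.69, and also with limma-voom (0.54), no count filter (0.58) or the 2 diets alone (0.57). The HFD against BD call of Serpinb1a held in all 15. Its MCD against HFD call was lost in 6 of 15, with values between 1.34 and 2.23. Without HFD replicate 2, Serpina1d (-0.56) and Serpina1e (-1.95) were called lower in MCD against HFD. Serpina1d was also called lower in that pair with DESeq2 (-0.46) and without MCD replicate 2 (-0.57). In HFD against BD, Serpina1d was called lower with DESeq2 (-0.44) and with the non-unique alignments as a covariate (-0.48). The same held there without MCD replicate 2 (-0.45) or HFD replicate 4 (-0.53). Without MCD replicate 2, Serpina1a was called lower in MCD against BD (-0.61). Serpina3n lay just outside the threshold in MCD against BD, and it was called higher there in 6 of the 15 fits and with DESeq2 (0.49), limma-voom (0.49), no TMM factors (0.61), upper-quartile factors (0.52), no count filter (0.50) and the 2 diets alone (0.50).

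The non-unique alignments moved with some of these genes. BD replicate 5, with the most such alignments per gene count (2.80), had the highest Serpina1e level, and HFD replicate 2, with the fewest (1.15), had the lowest. With log2 of that ratio as a covariate, the MCD against BD value of Serpina1e was -1.66 in place of -2.63, that of Serpina1b -0.24, that of Serpina1c -0.38 and that of Serpina3k -0.35, and none of these 4 was called. Serpina1d was still called, at -0.68. Serpinb1a, with 96.6% of its 50-base windows in no other gene, was called at -0.94 in MCD against BD in place of -0.42. Its MCD against HFD call was lost (1.33). In MCD against HFD the covariate gave Serpina1e -0.18 in place of -1.65, Serpina1d -0.20 in place of -0.46 and Serpina3k -0.033 in place of -0.45. In HFD against BD the value of Serpina1e was -1.475 in place of -0.98. The ratio was 1.49 to 2.80 in BD and 1.19 to 1.67 in MCD, so covariate and diet cannot be fully told apart. The part of read placement in these differences was not tested.

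Levels between genes can be compared only per transcript length. In BD, Serpina1e stood at 5357 ± 1385 CPM per kb and Serpina3k at 5329 ± 986 CPM per kb, closer than their spread. Serpina1b followed at 1827 ± 165, and then Serpina1d at 1397 ± 87.9 and Serpina1c at 1335 ± 204 CPM per kb, the last pair again within their spread. Serpina1a (372 ± 74.1), Serpina3n (166 ± 29.7) and Serpina3m (151 ± 28.7) came next, and Serpinb1a was lowest at 4.34 ± 1.68 CPM per kb. In MCD, Serpina3k led at 3201 ± 1313 CPM per kb and Serpina1e, at 864 ± 508 CPM per kb, came after Serpina1b and Serpina1c. Serpina1c, Serpina1e and Serpina1d did not differ beyond their spread in MCD. Reads that match several copies are missing from these levels.

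Pearson's r of log2 CPM across the 15 libraries ran from 0.680 (Serpina1a with Serpina1e) to 0.907 (Serpina1c with Serpina1d) among the 5 copies. It was 0.903 between Serpina1d and Serpina1e and 0.873 between Serpina1e and Serpina3k. After the diet means were taken away, Serpina1c with Serpina1d gave 0.913, Serpina1d with Serpina1e 0.865 and Serpina1e with Serpina3k 0.793. The lowest pair of copies was then Serpina1b with Serpina1e, at 0.425 (0.696 before). Serpina3n and Serpina1e gave -0.638, and -0.446 within diets. Serpina1e and Serpinb1a gave -0.122 over all libraries and -0.714 within diets. These values share libraries, depth and, for the copies, the placement of reads, and they are descriptions with no test.

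Among 9036 genes with a mean of at least 5 CPM, those most like each serpin were found by the same r over 15 libraries. For Serpina1e they were Lama3 (0.972, a laminin chain), Sdr9c7 (0.951) and C8b (0.946, a subunit of the complement membrane attack complex). For Serpina1d they were Edem1 (0.970, which directs misfolded glycoproteins to disposal), Serpinf2 (0.964, alpha-2-antiplasmin) and AI182371 (0.961). For Serpina3k they were Mup12 (0.932, a major urinary protein), Ces3b (0.929) and Hao1 (0.921). Serpinb1a was most like Creg1 (0.935), Ces1g (0.933) and Gstm1 (0.914), and within diets these were 0.804, 0.776 and 0.750. Serpina3n was most like Ifit1 (0.899, an interferon-induced gene), Cd300ld (0.888) and Tpp1 (0.884). For Serpina1a they were Qars (0.940), Tmem19 (0.878) and Nsun2 (0.873). For Serpina1b they were Cpb2 (0.891), Desi1 (0.887) and Ugt2a3 (0.886), and for Serpina1c Impa1 (0.929), Amy1 (0.923) and Epb4.1l5 (0.918). Serpina3m was most like Stra13 (0.805), Serpina6 (0.805) and Atp6ap1 (0.799). The genes compared share libraries and diets, so r says only that their levels ran alike.

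Of the 54 other genes with a Serpin symbol, 21 had enough reads to be tested, and 16 of the 63 had no count in any library. MCD against BD changed 13 of these 21, with 7 higher and 6 lower, of which Serpina9 stayed under 5 CPM. HFD against BD changed 3, with 2 higher and 1 lower, and MCD against HFD changed 2, both higher. Without HFD replicate 2 the last count was 9. Of all genes tested, 12.8% were called higher and 8.64% lower in MCD against BD. The shares were 3.65% and 3.27% in HFD against BD, and 2.22% and 0.927% in MCD against HFD. All adjusted p values that follow come from edgeR's quasi-likelihood test over all 12193 genes.

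Serpinc1, Serpinf2 and Serpind1, which act on clotting and fibrinolysis, fell in MCD against BD. Serpinc1, antithrombin, read 2548, 2518, 2708, 2674 and 2543 CPM in BD and 1816, 1953, 1944, 1850.5 and 1791 CPM in MCD. These diets did not overlap, and the difference was -0.47 ± 0.08 (adjusted p = 0.000326). Serpinf2, alpha-2-antiplasmin, fell from 1117 ± 38.9 to 689 ± 98.5 CPM (-0.70 ± 0.12, adjusted p = 0.00055). Serpind1, heparin cofactor II, fell from 736 ± 69.0 to 553 ± 38.6 CPM (-0.41 ± 0.10, adjusted p = 0.00463). In HFD against BD, Serpinc1 (-0.26, adjusted p = 0.0534), Serpinf2 (-0.40, adjusted p = 0.0554) and Serpind1 (-0.31, adjusted p = 0.0567) lay just outside the threshold with edgeR. Each was called lower there with DESeq2, with limma-voom and with the non-unique alignments as a covariate. Serpinf1, the secreted factor PEDF, fell from 793 ± 67.6 to 628.5 ± 62.7 CPM (-0.34 ± 0.09, adjusted p = 0.012), and it lost the call without TMM factors (-0.20, adjusted p = 0.0828). Serping1, the C1 inhibitor, did not pass with edgeR in any pair (MCD against HFD adjusted p = 0.0635), but was called lower in MCD against HFD with DESeq2 (-0.33, adjusted p = 0.0172) and without HFD replicate 2 (-0.34, adjusted p = 0.0404). It averaged 1024 ± 36.7, 1139 ± 122 and 902 ± 103 CPM in BD, HFD and MCD.

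Among other clade A genes, carriers of hormones were measured too. Serpina7, thyroxine-binding globulin, read 42.0, 56.4, 55.8, 57.1 and 47.8 CPM in BD. The HFD values were 87.8, 223, 81.9, 44.9 and 94.6 CPM, and the MCD values were 194, 126.2, 95.8, 191 and 124 CPM. All 5 MCD libraries were above all BD libraries, with 1.49 ± 0.35 (adjusted p = 0.00704), and HFD against BD did not pass with edgeR (1.03 ± 0.34, adjusted p = 0.0956). The latter value was 0.57 without HFD replicate 2, and it was called without HFD replicate 4 (1.24, adjusted p = 0.0223) and with DESeq2 (1.05, adjusted p = 0.037). Without HFD replicate 2, Serpina7 was called higher in MCD against HFD (0.94, adjusted p = 0.019). With the covariate its MCD against BD value was 0.96. Serpina3g, a clade A serpin known from activated leukocytes, rose from 6.85 ± 2.70 CPM in BD to 12.6 ± 3.13 CPM in MCD (0.89 ± 0.24, adjusted p = 0.0125). Serpina6, corticosteroid-binding globulin, and Serpina10, the protein Z-dependent inhibitor, did not pass in any pair. Serpina6 averaged 214 ± 31.9, 259 ± 77.2 and 241 ± 63.4 CPM in BD, HFD and MCD, and Serpina10 averaged 189 ± 21.9, 226 ± 10.6 and 199.5 ± 35.1 CPM.

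Serpinb8 rose in both fat-rich diets, from 2.86 ± 0.45 CPM in BD to 5.37 ± 1.52 CPM in HFD (0.92 ± 0.20, adjusted p = 0.00795) and 11.5 ± 1.34 CPM in MCD (2.01 ± 0.19, adjusted p = 2.16e-06). Serpinh1, the collagen chaperone HSP47, rose from 14.3 ± 0.83 CPM to 22.3 ± 5.31 CPM in HFD (0.62 ± 0.15, adjusted p = 0.0202) and 28.2 ± 4.19 CPM in MCD (0.97 ± 0.15, adjusted p = 0.000216). The HFD call of Serpinh1 was lost without HFD replicate 1 or 2 or BD replicate 4, where adjusted p was 0.0506 to 0.052, and with limma-voom (0.52, adjusted p = 0.089). Serpinb6b was higher in MCD (10.6 ± 0.66 CPM) than in HFD (3.71 ± 1.07 CPM; 1.5 ± 0.25, adjusted p = 0.00575) and than in BD (5.52 ± 2.53 CPM; 0.89 ± 0.24, adjusted p = 0.0124). Serpinb6a rose from 11.7 ± 2.75 CPM in BD to 19.7 ± 4.19 CPM in MCD (0.73 ± 0.18, adjusted p = 0.00676).

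Serpine2, protease nexin 1, fell from 14.7 ± 3.45 CPM in BD to 5.24 ± 1.99 CPM in MCD (-1.50 ± 0.38, adjusted p = 0.00987), and with the non-unique alignments as a covariate it differed by -0.92. In the edgeR fit of all 15 libraries without a covariate, Serpinf1 was the 1 gene of the 21 other serpins called lower in HFD against BD (-0.30 ± 0.09, adjusted p = 0.0484). That call was lost in 12 of the 15 fits that left out a library, with adjusted p from 0.0649 to 0.122.

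**Figure D4:**
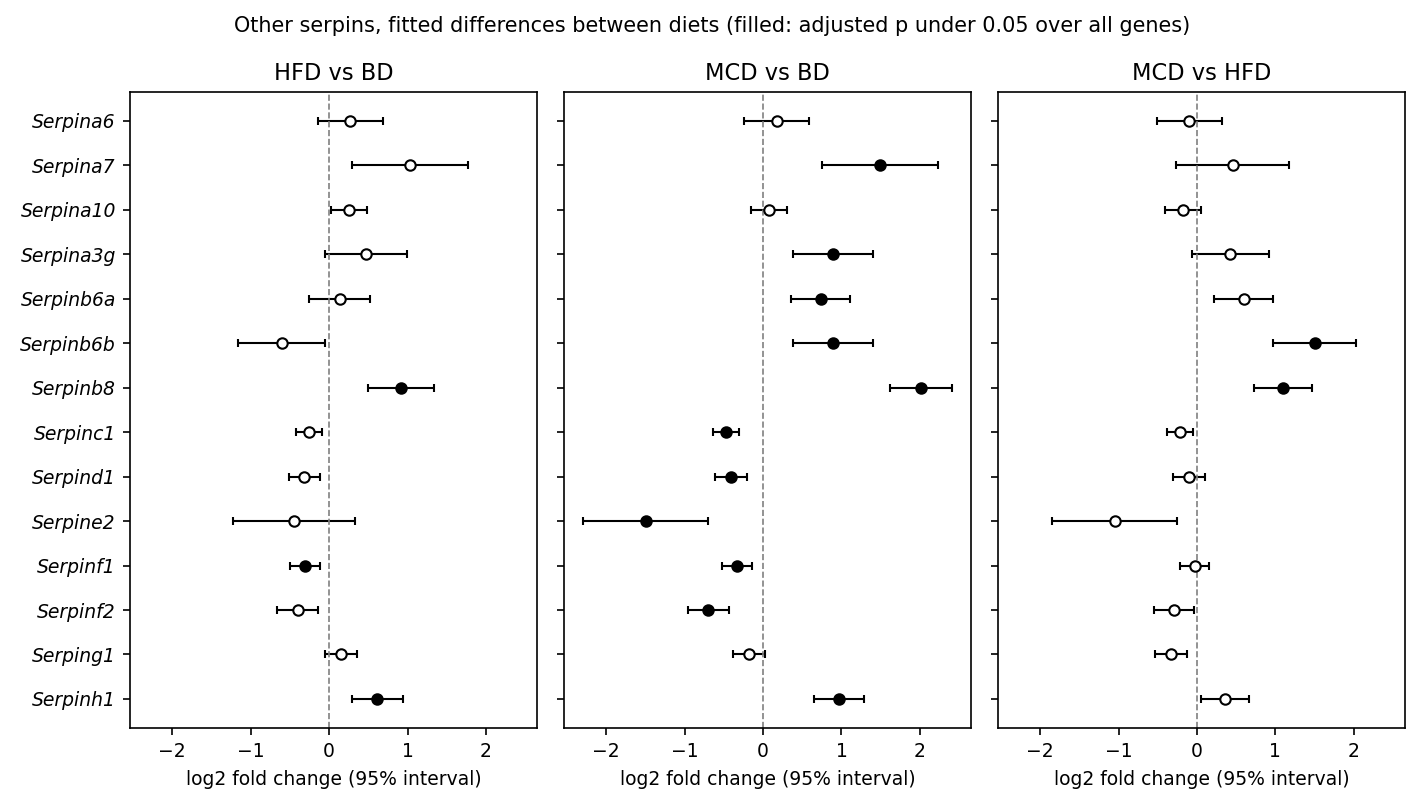
Fitted log2 fold change of 14 other serpins for the 3 pairs of diets, with 95% intervals as bars; filled points have an adjusted p under 0.05 over all genes tested. In MCD against BD, Serpinb8 lies highest at 2.01 and Serpine2 lowest at -1.50, while Serpina6, Serpina10 and Serping1 are unfilled in all 3 panels.

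Transcripts of the neutrophil and mast cell proteases were at or near 0. Of 14 listed serine proteases and inflammatory caspases, 3 were tested. Ctsg, Cma1 and Mcpt8 had no count in any library, which allows up to 3 counts, or 0.13 to 0.81 CPM depending on the library. Elane, neutrophil elastase, had 12 counts in all 15 libraries together and Prtn3, proteinase 3, had 39. Klkb1, plasma prekallikrein, which hepatocytes make, fell from 269.9 ± 34.8 CPM in BD to 192 ± 29.1 CPM in MCD (-0.49 ± 0.12, adjusted p = 0.00664). Casp4, an inflammatory caspase, rose from 1.14 ± 0.21 to 2.39 ± 0.68 CPM (1.08 ± 0.30, adjusted p = 0.013), and it lost the call with the non-unique alignments as a covariate (adjusted p = 0.0761). With edgeR 0 passed in HFD against BD, where 0 had an unadjusted p under 0.05, and 0 in MCD against HFD, where 2 did.

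Acute phase genes, which liver cells switch on after IL-6 acts through STAT3, moved in both directions. Of 27 tested, 3 rose and none fell in HFD against BD, 5 rose and 6 fell in MCD against BD, and 1 rose and 4 fell in MCD against HFD. Of all genes tested, 3.65% were called higher and 3.27% lower in HFD against BD. The shares were 12.8% and 8.64% in MCD against BD, and 2.22% and 0.927% in MCD against HFD. Il1rn, the interleukin 1 receptor antagonist, rose from 1.57 ± 0.58 CPM in BD to 7.21 ± 5.29 CPM in HFD (2.18 ± 0.43, adjusted p = 0.00538) and 12.8 ± 4.48 CPM in MCD (2.98 ± 0.42, adjusted p = 0.00017). Steap4, a metalloreductase, rose in HFD from 108 ± 12.3 to 229.8 ± 69.9 CPM (1.08 ± 0.18, adjusted p = 0.0012). Itih3, an inter-alpha-trypsin inhibitor heavy chain, averaged 1198 ± 87.7 CPM in BD, 1197 ± 116 CPM in HFD and 765 ± 94.8 CPM in MCD. It fell in MCD against BD (-0.65 ± 0.10, adjusted p = 0.000216) and against HFD (-0.65 ± 0.10, adjusted p = 0.00437). Itih4 fell in MCD against HFD from 3438 ± 597 to 2153 ± 204 CPM (-0.68 ± 0.11, adjusted p = 0.00575). In MCD against HFD the count of 5 ran from 2 to 9. The list's median was 0.19, -0.04 and -0.16 in the 3 pairs. The count for MCD against BD ran from 6 to 12 when 1 library was left out, and it was 6 or 7 without MCD replicate 1, MCD replicate 4 or BD replicate 1.

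Growth hormone acts on the male mouse liver through STAT5B, and Mup genes and several Cyp genes are its known male-biased targets. Of 21 genes tested, none rose with edgeR in any pair (1, 1 and 0 had an unadjusted p under 0.05; DESeq2 called 1 higher in HFD against BD), 1 fell in HFD against BD, 4 in MCD against BD and 1 in MCD against HFD. In these pairs 3.27%, 8.64% and 0.927% of all genes were called lower, and 3.65%, 12.8% and 2.22% higher. Stat5b itself fell from 101 ± 15.3 CPM in BD to 68.4 ± 8.01 CPM in HFD (-0.56 ± 0.13, adjusted p = 0.0114) and 60.1 ± 11.2 CPM in MCD (-0.75 ± 0.13, adjusted p = 0.000477). Igf1, the secreted growth factor, fell in MCD to 433 ± 71.7 CPM from 627 ± 20.2 CPM in BD (-0.54 ± 0.11, adjusted p = 0.00193) and from 586 ± 67.2 CPM in HFD (-0.44 ± 0.11, adjusted p = 0.0385). The last call was lost in 8 of 15 fits that left out a library (adjusted p up to 0.118), and with upper-quartile factors, the 2 diets alone or the covariate (up to 0.155). The list's median was -0.09, -0.44 and -0.49, and all 21 fitted values were below 0 in MCD against HFD, beside a median of -0.003 over all genes. The MCD against BD count was 8 without MCD replicate 2 or HFD replicate 2, and 7 with the 2 diets alone. Of 11 female-biased genes 2 were tested, and Cyp2b9 rose in MCD against BD, from 0.141 to 1.14 CPM in the BD libraries to 7.78 to 108 CPM in the MCD libraries (6.4 ± 1.79, adjusted p = 0.0229). It lost the call without BD replicate 2 or BD replicate 5, with adjusted p up to 0.0544, and with the covariate (0.0802).

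Hepatocyte transcription factors bind the promoters of many serpin genes. Of 12 tested, 1 rose in HFD against BD, 1 rose and 2 fell in MCD against BD, and none passed in MCD against HFD. In that pair 0 passed with edgeR, DESeq2 and limma-voom, and 2 had an unadjusted p under 0.05, both lower. Over all genes tested, 3.65% were called higher and 3.27% lower in HFD against BD. In MCD against BD the shares were 12.8% and 8.64%, and in MCD against HFD 2.22% and 0.927%. Ppara, the fatty acid sensor, rose from 286 ± 50.9 CPM in BD to 557.5 ± 43.0 CPM in HFD (0.96 ± 0.14, adjusted p = 0.000242) and 441 ± 86.3 CPM in MCD (0.62 ± 0.14, adjusted p = 0.00347). Hnf4a fell from 841 ± 62.2 to 651 ± 72.4 CPM in MCD (-0.37 ± 0.09, adjusted p = 0.00777), and the call was lost without TMM factors (adjusted p = 0.0927).

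Secreted serpins fold in the endoplasmic reticulum, and misfolded ones are cleared by its disposal machinery. Of 16 genes tested, 1 rose in HFD against BD, 3 fell in MCD against BD and 1 fell in MCD against HFD. With 1 library left out these counts ran from 1 to 3 (highest without BD replicate 5), stayed at 3, and ran from 0 (without MCD replicate 1, 4 or 5 or HFD replicate 4) to 4 (without MCD replicate 2 or HFD replicate 2). Among all genes tested, 3.65% were called higher and 3.27% lower in HFD against BD. The shares were 12.8% and 8.64% in MCD against BD, and 2.22% and 0.927% in MCD against HFD. Edem1 fell from 251.5 ± 10.8 CPM in BD to 179 ± 26.8 CPM in MCD (-0.49 ± 0.10, adjusted p = 0.00165), and Os9, a lectin of the disposal complex, fell from 334 ± 31.5 to 237 ± 37.9 CPM (-0.49 ± 0.11, adjusted p = 0.0026). Derl3, a channel component of the same machinery, rose from 1.16 ± 0.66 CPM in BD to 12.7 ± 10.1 CPM in HFD (3.27 ± 0.55, adjusted p = 0.00194) and stood at 2.5 ± 0.58 CPM in MCD (-2.28 ± 0.48 against HFD, adjusted p = 0.0223). The last call was lost without MCD replicate 1, 4 or 5 or HFD replicate 4, with adjusted p up to 0.0779, and with the 2 diets alone or the covariate (up to 0.145). The list's median was 0.12, -0.05 and -0.23.

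Summed markers of other liver cells differed between the diets to unequal degrees. Neutrophil markers, of which 10 of 11 were found, summed to 1.65 to 3.40 CPM in BD, 3.81 to 5.75 CPM in HFD and 4.81 to 6.76 CPM in MCD, and none was at 0 in all libraries. Only 1 of these markers, Csf3r, had enough reads to be tested. Macrophage and Kupffer cell markers, 13 of 14 found, summed to 258 to 462 CPM in BD, 396 to 580.5 CPM in HFD and 551 to 705 CPM in MCD. Stellate cell and fibroblast markers, 8 of 8 found, summed to 296 to 393 CPM in BD, 375 to 534 CPM in HFD and 532 to 931 CPM in MCD. Of the 21 other serpins tested, only Serpinb8 and Serpinh1 were called higher with edgeR in both HFD and MCD against BD. The mean of Serpina3n was also higher in both, with overlap through BD replicate 5, whereas Serpinb1a was lowest in HFD. The hepatocyte sum was 124584 to 143082 CPM in BD, 108752 to 132446 CPM in HFD and 113114 to 158445 CPM in MCD. The part of cell makeup in any of these differences was not tested.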

How the data were processed

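PolyA RNA of 15 liver libraries was sequenced, 5 for each diet. Each deposited table lists raw read counts by gene symbol. The tools named in the submitters' processing notes are Trimmomatic, TopHat2 (2.0.13), HTSeq and DESeq2, and the build is GRCm38. The annotation, the strand setting and how HTSeq treated overlaps: not given in the sources used here, so overlapping genes are uncertain. Rows that name no gene stayed out of totals and tests. Reads outside genes were 12.7% to 17.0% and ambiguous reads 0.567% to 0.841% of uniquely placed reads. The test was edgeR's (4.0.16, R 4.3.3) with TMM factors, filterByExpr by diet (minimum count 10, minimum total 15), and 1 robust quasi-likelihood fit over the 15 libraries with two-sided F tests; the common biological coefficient of variation was 0.176. SE is the size of the log2 fold change over the square root of F, and intervals are 95%. Levels of 3 counts correspond to 0.13 to 0.81 CPM per library. Replicates differed beyond counting noise, with a chi-square per degree of freedom of 6.89 to 61.1 over 30 pairs. The fitting procedure was tested on simulated data. Alternatives were DESeq2 1.42.0, limma 3.58.1 (voom), other scalings, no filter, the 2 diets alone, summed Serpina1 copies, a covariate of non-unique alignments and left-out libraries. The 9 genes and all gene lists were chosen with earlier results of these data known, so no list is independent evidence. Text names all 9 genes, every other serpin called in a pair with at least 5 CPM, a set of plasma serpins whatever their calls, the 2 called genes of lowest p per list and pair, and up to 3 genes most like each of the 9, leaving out predicted genes; 1 serpin the rule names is counted but not reported here. Sequences come from GRCm38 with GENCODE vM21 and from RefSeq promoters.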

Additional observations from a re-analysis of the deposited data

Results flagged for a closer look

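Groups of 5 libraries were examined for a library whose gap to its nearest neighbour exceeded 0.71 of the group's range. Of 90 groups 9 had one, where chance gives about 1 in 20, and HFD replicate 2 accounted for 5 of them. The groups share libraries and are not independent.

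HFD replicate 2 was far below the other HFD libraries for Serpina1b (2543 CPM against 2912 to 3001) and for the Serpina1e share of the Serpina1 sum (3.39% against 36.9% to 49.2%). It was far above them for the shares of Serpina1a (7.19% against 3.84% to 4.26%) and Serpina1c (17.6% against 12.2% to 13%) and for Serpina7 (223 CPM against 44.9 to 94.6). MCD replicate 2 was far above the other MCD libraries for Serpina1b (3233 CPM against 2198 to 2449), Serpina1c (1782 CPM against 932 to 1097), Serpina10 (261 CPM against 173 to 196) and the sum of the 9 serpins (21231 CPM against 10665 to 13317).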

How the results depend on the processing

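Of 1641 recomputed log2 differences of the named serpins, 1627 kept their direction, and none of the 14 that reversed had been called. Counts of calls moved more, and each follows the value with all libraries. For HFD against BD (2 of the 9 serpins), 1 was called with no count filter, with limma-voom, with the 2 diets alone and without HFD 2 and MCD 3. The 3 other serpins became 7 with DESeq2 or the covariate of non-unique alignments, 5 with limma-voom and 1 without HFD 2 and MCD 3. For MCD against BD (5 of 9), 2 were called with the covariate and 3 of 5 rows with the Serpina1 copies summed. For MCD against HFD (1 of 9), 2 were called with DESeq2, 3 without HFD 2 and MCD 3 and 0 with the covariate. The 2 other serpins became 6 with DESeq2, 4 without TMM factors and 8 without HFD 2 and MCD 3. All genes called in that pair (384) became 701 with DESeq2, 224 with the 2 diets alone, 1365 without HFD 2 and MCD 3 and 81 with the covariate.

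With 1 library left out, the 9 serpins gave 1 to 2 calls in HFD against BD, 1 to 6 in MCD against BD and 0 to 3 in MCD against HFD. Other serpins gave 1 to 6, 12 to 14 and 2 to 9, and all genes 569 to 974, 1938 to 2805 and 74 to 1248, the last highest without HFD replicate 2. In MCD against HFD, Serpinf1 reversed to 0.043 without TMM factors and 0.0081 with upper-quartile factors, Serpina3n to 0.15 and Serpina6 to 0.086 without HFD 2 and MCD 3, and, with the covariate, Serpina1a to 0.015, Serpina1c to 0.10, Serpina3m to -0.012 and Serpind1 to 0.031. With 1 library left out, that pair ran from -0.073 to 0.027 for Serpinf1, from -0.18 to 0.10 for Serpina3n and from -0.27 to 0.026 for Serpina6. Serpina10 in MCD against BD ran from -0.034 to 0.14. Without TMM factors the median of all genes in MCD against BD moved from -0.025 to 0.115. The causes were not tested. No paired analysis was possible because the replicate numbers only name the libraries of a diet. Depth limits Serpinb1a most.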
